A study of Rattus norvegicus with 24 samples.

Results

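A set of 10 genes that neurons express while they are young was examined in the dentate gyrus of the rat: Sox4, Sox11, Dcx, Nrep, Tubb3, Tubb2b, Neurod1, Dpysl3, Dpysl5 and Stmn1. They were found by taking each probe set whose gene symbol in the platform annotation is exactly one of these names, which gave 10 genes of 14217 with a single symbol and 19 probe sets of 31042 on the array other than controls. Sox4 has 7 of them, Dcx, Tubb3 and Dpysl3 have a pair each, and the other genes have 1. Only 8 probe sets, from 6 genes, had a log2 value above 4 on at least 6 arrays and were tested. These were Sox4 (3 probe sets), Neurod1, Stmn1, Tubb3, Tubb2b and Nrep. Sox11, Dcx, Dpysl3 and Dpysl5 had no probe set that was tested.

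All animals were male Long-Evans rats, for which the labels name no treatment and no genetic change. The aged impaired rats (7 arrays) and the aged unimpaired rats (6 arrays) were 24 to 26 months old, and the young rats (8 arrays) were 6 months old. A spatial learning score from the Morris water maze, a swimming task with a hidden platform, divided the aged rats: unimpaired rats scored within the young range and impaired rats scored worse. Each array held total RNA of the microdissected dentate gyrus, collected 2 weeks after the behavioural tests, and the labels call the arrays of a group biological replicates.

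The dentate gyrus is one of the few brain regions in which neurons continue to be produced in adult rodents. Stem cells in its subgranular zone give rise to dividing progenitors and then to neuroblasts, which extend neurites and mature into granule neurons. Dcx, a microtubule-associated protein of migrating neurons, is the usual marker of the neuroblast stage, and in rodents the number of cells carrying it declines with age. The other genes encode transcription factors of neuronal differentiation (Sox4, Sox11, Neurod1), tubulins and proteins that bind them (Tubb3, Tubb2b, Stmn1), growth cone proteins of the collapsin response mediator family (Dpysl3, Dpysl5) and a small protein first described in neurons (Nrep). Several are expressed also outside new neurons: Neurod1 and Stmn1 in mature neurons and, in mouse, Sox4 in the oligodendrocyte lineage.

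Promoter sequences are given for 3 members on which the account turns: the β-tubulin gene whose aged and young arrays did not overlap (Tubb2b), a β-tubulin gene whose groups differed less (Tubb3), and Nrep, which was lower in both aged groups. Each runs from 250 bases before the annotated start of the gene to 50 after it, from RefSeq on assembly GRCr8, 5′ to 3′ along the gene. The table held an entry for 9 of the 10 genes, all but Sox4. Capitals mark matches, on either strand, to an E-box (CANNTG), a Sox core (ATTGTT) or a TATA box (TATAAA).
Tubb2b promoter, chr17:30952836-30953135, plus strand: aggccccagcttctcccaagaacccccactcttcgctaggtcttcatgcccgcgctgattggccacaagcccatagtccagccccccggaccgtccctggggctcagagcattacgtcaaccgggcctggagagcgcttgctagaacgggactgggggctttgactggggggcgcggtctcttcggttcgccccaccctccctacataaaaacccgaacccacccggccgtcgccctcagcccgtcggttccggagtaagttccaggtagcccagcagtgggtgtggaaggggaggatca
Tubb3 promoter, chr19:68365437-68365736, plus strand: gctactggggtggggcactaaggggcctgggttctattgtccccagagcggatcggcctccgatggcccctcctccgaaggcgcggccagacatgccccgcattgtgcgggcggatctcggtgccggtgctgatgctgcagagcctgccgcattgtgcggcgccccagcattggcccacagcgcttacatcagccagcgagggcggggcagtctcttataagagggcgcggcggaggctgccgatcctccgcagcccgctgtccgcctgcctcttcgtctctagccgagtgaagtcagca
Nrep promoter, chr18:25320693-25320992, minus strand: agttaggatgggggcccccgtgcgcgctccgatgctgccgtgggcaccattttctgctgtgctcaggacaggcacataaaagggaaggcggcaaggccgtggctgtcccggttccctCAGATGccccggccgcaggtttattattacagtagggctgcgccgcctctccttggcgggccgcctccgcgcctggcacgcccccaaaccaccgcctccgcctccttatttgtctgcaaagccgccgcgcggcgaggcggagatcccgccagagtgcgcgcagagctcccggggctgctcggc
The Tubb2b and Tubb3 windows held none of the 3 motifs and the Nrep window held 1 E-box. Of 33469 rat promoter windows in the same table, 72.1% held an E-box, 11.7% a Sox core and 14.2% a TATA box. GC content was 64.3% for Tubb2b, 67.3% for Tubb3 and 68% for Nrep, against a median of 51.7% over all windows.

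The arrays were alike in the measures of quality that the values allow. Array medians lay between 3.77 and 3.84, 48.3% to 48.8% of probe sets were above 4, and each array correlated with its own group at r of 0.989 to 0.992. The 3′ minus 5′ signal of the Gapdh and β-actin controls averaged 1.42 ± 0.06 in impaired, 1.40 ± 0.04 in unimpaired and 1.43 ± 0.05 in young arrays (SD, n = 7, 6 and 8). In 4 arrays genes of the meninges were high: the mean log2 level of 3 such genes relative to all probe sets was 3.35, 2.83 and 1.79 in impaired replicates 2, 3 and 7 and 1.12 in young replicate 5. Young replicate 9, whose record stands among those of unimpaired rats although its title and age are those of a young rat, had the highest value of the 21 arrays in 6 of the 11 member probe sets with a value above 4 on any array. For each member probe set called in impaired or in unimpaired rats relative to young rats, the adjusted p of that comparison is also given below without these arrays. Dcx, the correlations and the genes most like the members are also given without young replicate 9, a choice made after the data were seen.

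Sox4, a transcription factor that in mouse takes part in the differentiation of newborn neurons, had 2 probe sets with clear signal. For 1373860_at the log2 values were 6.07, 6.41 and 6.60 in impaired rats, 6.21, 6.39 and 6.58 in unimpaired rats and 6.63, 6.92 and 7.26 in young rats (lowest, median and highest). All 13 aged arrays lay below all 8 young arrays, while the impaired and unimpaired arrays overlapped. This probe set fell by 0.59 ± 0.10 in impaired relative to young rats (limma difference ± standard error, adjusted p = 0.00498) and by 0.53 ± 0.10 in unimpaired relative to young rats (limma adjusted p = 0.0155). In bulk tissue, fewer cells of a type and less RNA per cell cannot be told apart. For 1383137_at the values were 8.10, 8.48 and 8.64 in impaired rats, 8.11, 8.56 and 8.84 in unimpaired rats and 8.66, 8.94 and 9.43 in young rats. The impaired arrays lay below the young ones, whereas the unimpaired arrays overlapped with them. It fell by 0.56 ± 0.11 in impaired relative to young rats (limma adjusted p = 0.0266), and the difference of -0.48 ± 0.12 in unimpaired relative to young rats missed the threshold (limma adjusted p = 0.0510). A probe set just above the level filter, 1375123_at, averaged 3.90 ± 0.19 in impaired, 3.97 ± 0.03 in unimpaired and 4.14 ± 0.15 in young rats (SD, n = 7, 6 and 8). It was above 4 on 6 young and 2 aged arrays, and so passed the filter mainly through the group in which it was high. Its differences from young rats were -0.24 ± 0.07 (impaired, limma adjusted p = 0.144) and -0.17 ± 0.08 (unimpaired, limma adjusted p = 0.251).

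The other Sox4 probe sets were not tested. One, 1384000_at, averaged 3.71 ± 0.04 in impaired, 3.75 ± 0.14 in unimpaired and 3.91 ± 0.19 in young rats (SD). The values of 1383989_at lay between 3.41 and 3.98, those of 1393571_at between 3.37 and 3.63 and those of 1375257_at between 1.20 and 1.23 over all arrays, with overlapping groups. Because a probe set's brightness depends on its own probes, these levels do not rank the probe sets or the genes against each other.

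The other tested transcription factor, Neurod1, which in mouse is needed for adult-born granule neurons to survive and is kept on in granule neurons, showed no detectable difference. Its log2 values were 8.56, 8.66 and 9.10 in impaired rats, 8.54, 8.58 and 8.66 in unimpaired rats and 8.55, 8.72 and 9.05 in young rats (lowest, median and highest). The 3 groups overlapped, and the unimpaired arrays spread least. The difference was -0.01 ± 0.08 in impaired relative to young rats (95% interval -0.17 to 0.15, limma adjusted p = 0.975) and -0.16 ± 0.08 in unimpaired relative to young rats (95% interval -0.33 to 0.01, limma adjusted p = 0.324).

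Tubb2b, the β-tubulin abundant in developing neurons, was the member that separated aged from young rats with the smallest p-value. Its log2 value was 10.64, 10.82 and 11.03 in impaired rats (lowest, median and highest of 7), 10.78, 10.87 and 10.93 in unimpaired rats (of 6) and 11.13, 11.40 and 11.55 in young rats (of 8). Here too the aged arrays all lay below the young ones, and the aged groups overlapped. Tubb2b fell by 0.51 ± 0.07 in impaired relative to young rats (limma adjusted p = 0.00069), to 0.703 of the young level (95% interval 0.636 to 0.776). It likewise fell by 0.51 ± 0.07 in unimpaired relative to young rats (limma adjusted p = 0.00137), to 0.704 of the young level.

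Tubb3, the β-tubulin used as a general marker of neurons, differed less. Probe set 1371618_s_at, whose suffix marks probes that can match transcripts of more than 1 gene, had log2 values of 9.77, 9.89 and 10.02 in impaired rats, 9.76, 9.82 and 9.85 in unimpaired rats and 9.91, 9.97 and 10.15 in young rats. The unimpaired arrays lay below the young ones and the impaired arrays overlapped with both groups. It fell by 0.19 ± 0.05 in unimpaired relative to young rats (limma adjusted p = 0.0466), and differed by -0.11 ± 0.04 between impaired and young rats (limma adjusted p = 0.276). The second Tubb3 probe set, 1369901_at, stayed between 2.36 and 2.43 on all arrays, below the level filter, and was not tested. It can neither bear out nor contradict the first, which therefore stands alone for the gene.

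Stmn1, stathmin, a protein that binds free tubulin and destabilises microtubules, passed the test in neither comparison with young rats. Values were 11.73, 11.81 and 11.98 in impaired rats, 11.65, 11.73 and 11.77 in unimpaired rats and 11.73, 11.85 and 12.02 in young rats. It differed by -0.01 ± 0.05 between impaired and young rats (95% interval -0.11 to 0.09, limma adjusted p = 0.956) and by -0.13 ± 0.05 between unimpaired and young rats (limma adjusted p = 0.173). The interval of the impaired comparison does not reach the size of the Tubb2b difference.

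Nrep, the neuronal regeneration related protein, was lower in both aged groups. Its log2 value was 9.45, 9.85 and 10.06 in impaired rats, 9.51, 9.75 and 9.85 in unimpaired rats and 9.97, 10.16 and 10.43 in young rats (lowest, median and highest). The unimpaired arrays all lay below the young ones, and 6 of 7 impaired arrays did. Nrep fell by 0.47 ± 0.08 in unimpaired relative to young rats (limma adjusted p = 0.0121) and by 0.36 ± 0.08 in impaired relative to young rats (limma adjusted p = 0.0437). These correspond to 0.720 and 0.779 of the young level.

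**Figure D1:**
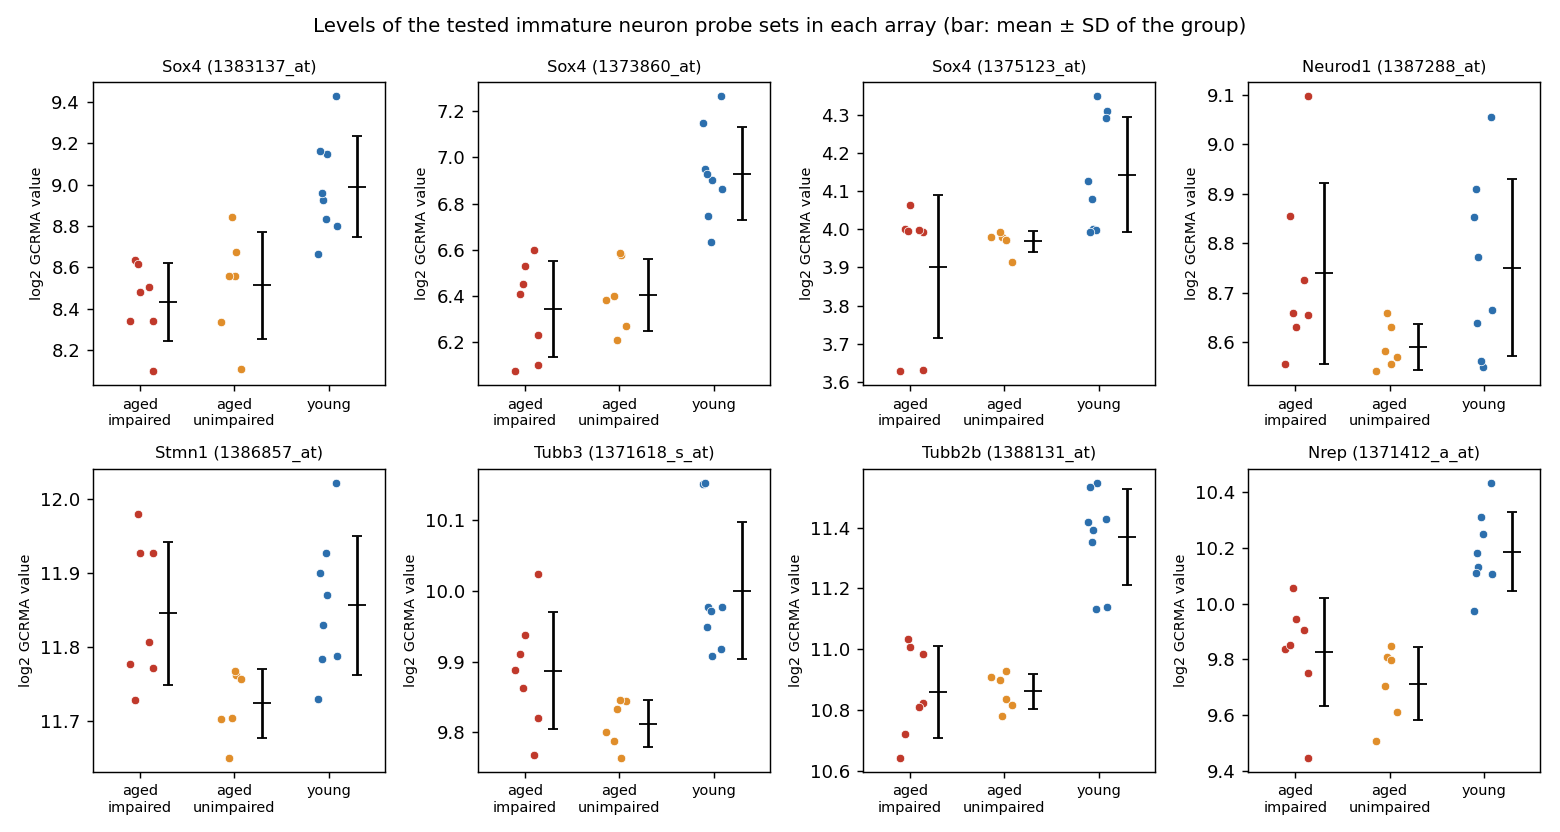
Log2 GCRMA value (y axis) of each of the 8 tested probe sets in aged impaired (red, 7 arrays), aged unimpaired (orange, 6 arrays) and young rats (blue, 8 arrays), with 1 point per array and the group mean ± SD beside the points. In the panels of Tubb2b and of Sox4 1373860_at the 13 aged arrays all lie below the 8 young arrays, whereas the groups overlap for Neurod1 and Stmn1.

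**Figure D2:**
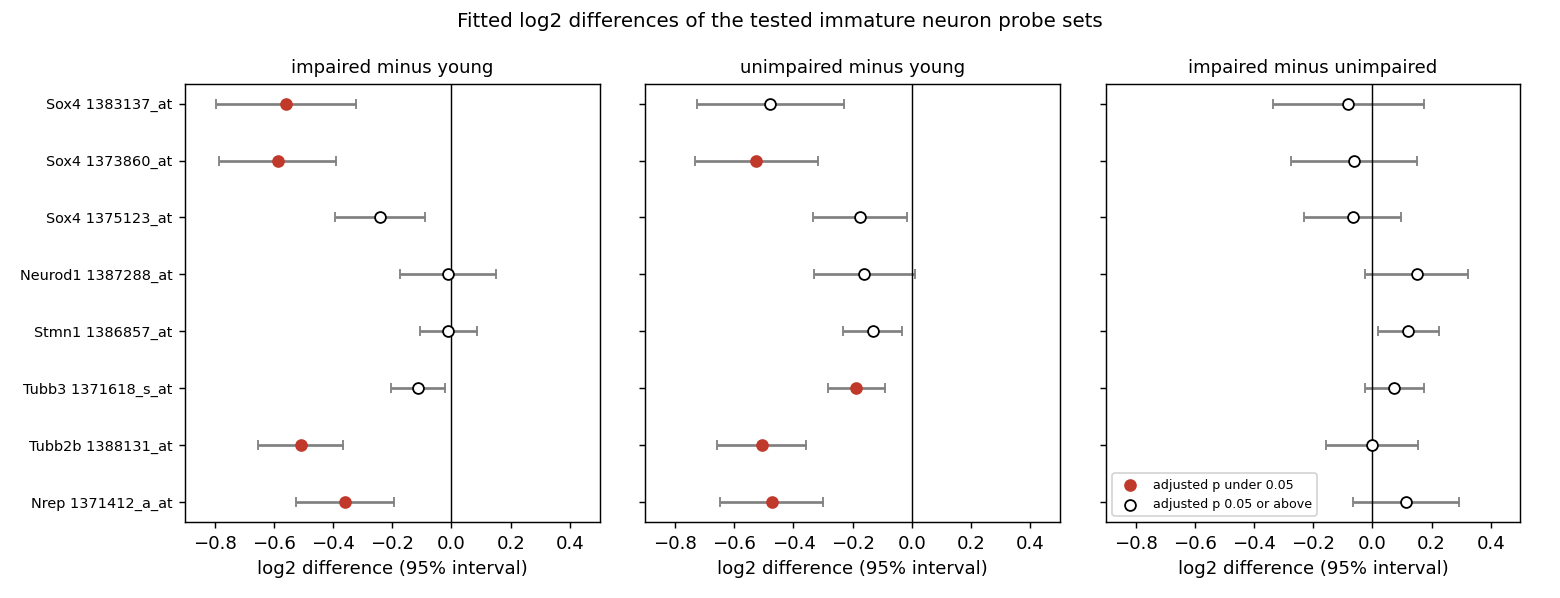
Fitted log2 differences (x axis) with their 95% intervals for the 8 tested probe sets, in impaired minus young, unimpaired minus young and impaired minus unimpaired rats; filled points have an adjusted p under 0.05. Both comparisons with young rats have 4 filled points, all below 0, and the comparison of the aged groups has none.

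Counted together, 4 of the 8 tested member probe sets were lower in impaired than in young rats (Sox4 1383137_at and 1373860_at, Tubb2b and Nrep) and 0 were higher, so that 3 of the 6 tested genes had a called probe set. Over all 15177 tested probe sets 0.514% passed in either direction and 0.204% passed as lower. The sign was negative in 8 of 8 member probe sets and in 44.8% of all probe sets, and the median difference was -0.30 for the members and 0.01 for all. Sox4 counts there with 3 probe sets, of which 1375123_at entered mainly through young arrays. By the brightest tested probe set of each gene, which leaves 1375123_at out, 6 of 6 genes were negative, with a median of -0.24. Among them Neurod1 and Stmn1 each differed by only -0.01, and changed sign in 7 and 4 of 21 fits with 1 array left out. The groups did not overlap for 3 member probe sets, both of the called Sox4 ones and Tubb2b, with the impaired arrays lower, against 0.145% of all probe sets. The Nrep call in impaired rats rests on many arrays: with 1 array left out in turn it held in 5 of 21 fits (without impaired replicate 7, unimpaired replicate 4 or young replicates 1, 4 or 5), with adjusted p between 0.0318 and 0.0962. Sox4 1383137_at held in 15 of 21 and was lost without impaired replicates 2 or 3 or young replicates 3, 6, 7 or 9, with adjusted p of up to 0.0671.

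In unimpaired relative to young rats 4 of the 8 member probe sets were lower (Sox4 1373860_at, Tubb2b, Nrep and Tubb3) and 0 were higher, against 1.13% of all probe sets in either direction and 0.936% as lower. These 4 probe sets are of 4 genes. The sign was again negative in 8 of 8 member probe sets, 1375123_at among them, against 66% of all probe sets, and the medians were -0.33 and -0.04. By the brightest tested probe set of each gene, which leaves 1375123_at out, 6 of 6 genes were negative, with a median of -0.33. For the 4 called probe sets the unimpaired arrays all lay below the young ones, against 0.843% of all probe sets, while 1375123_at, which entered mainly through young arrays, is not counted here. These comparisons use the same young arrays as those of the impaired rats, so the 2 sets of values are not independent of each other. Tubb3 held in 3 of 21 fits with 1 array left out, those without impaired replicates 4 or 8 or young replicate 3, with adjusted p between 0.0411 and 0.104. With the replicate number as a block, which the labels do not name as a pairing, 1 member probe set (Nrep) remained called in unimpaired rats.

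Without young replicate 9, Tubb2b fell by 0.50 ± 0.07 in impaired relative to young rats (limma adjusted p = 0.00246) and Sox4 1373860_at by 0.54 ± 0.09 (limma adjusted p = 0.0106). Sox4 1383137_at (-0.50 ± 0.11, limma adjusted p = 0.0538) and Nrep (-0.32 ± 0.08, limma adjusted p = 0.0806) then missed the threshold, which left 2 member probe sets, of 2 genes, called in impaired rats. In unimpaired rats Tubb2b, Nrep and Sox4 1373860_at were still lower than in young rats without that array (limma adjusted p = 0.00454, 0.0278 and 0.0300), and Tubb3 was not (limma adjusted p = 0.0641). Without the 4 arrays with high meningeal genes, Tubb2b fell by 0.52 ± 0.07 (limma adjusted p = 0.00615) and Sox4 1373860_at by 0.56 ± 0.11 (limma adjusted p = 0.0404) in impaired relative to young rats. Sox4 1383137_at (limma adjusted p = 0.194) and Nrep (limma adjusted p = 0.182) did not pass. In that same fit Tubb2b, Nrep and Sox4 1373860_at passed in unimpaired rats (limma adjusted p = 0.000653, 0.0271 and 0.0128) and Tubb3 did not (limma adjusted p = 0.0974).

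For all aged rats (13 arrays), the average of the impaired and unimpaired means was set against the young mean in the same fit. It gave 4 called member probe sets, of 3 of the 6 genes, against 1.11% of all probe sets in either direction and 0.705% as lower. Tubb2b fell by 0.51 ± 0.06 (limma adjusted p = 0.000108), Sox4 1373860_at by 0.56 ± 0.08 (limma adjusted p = 0.00138), Nrep by 0.42 ± 0.07 (limma adjusted p = 0.00389) and Sox4 1383137_at by 0.52 ± 0.10 (limma adjusted p = 0.0124). The sign was negative in 8 of 8 member probe sets, against 56.8% of all probe sets. Among these 8 was Sox4 1375123_at, which entered mainly through young arrays. Counted by the brightest tested probe set of each gene, which leaves 1375123_at out, 6 of 6 genes were negative, with a median of -0.28. The 4 called member probe sets were called in each of the 21 fits with 1 array left out. Only Tubb2b and Sox4 1373860_at had no overlap between aged and young arrays, against 0.0659% of all probe sets.

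Between the 2 aged groups, 0 member probe sets were called, and 0% of all tested probe sets were. At an unadjusted p under 0.05 there was 1 member probe set, that of Stmn1, against 14.5% of all probe sets. Stmn1 was 0.12 ± 0.05 higher in impaired than in unimpaired rats (limma adjusted p = 0.265), and all 7 impaired arrays lay above the unimpaired mean. Without the 4 arrays with high meningeal genes the Stmn1 difference was 0.08 ± 0.06 (limma unadjusted p = 0.147). Without young replicate 9 it was 0.12 ± 0.05 (limma unadjusted p = 0.015). The 95% interval of the impaired minus unimpaired difference was -0.16 to 0.15 for Tubb2b and -0.27 to 0.15 for Sox4 1373860_at. It was -0.34 to 0.17 for Sox4 1383137_at, -0.06 to 0.29 for Nrep, -0.02 to 0.17 for Tubb3 and -0.03 to 0.32 for Neurod1. The sign was negative in 4 of 8 member probe sets, against 27.6% of all probe sets, and the median difference was 0.04 over the members and 0.05 over all probe sets. For Tubb2b the interval does not reach the size of its difference from young rats, and a p above the threshold does not show that the aged groups are alike.

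Dcx was at the lower end of the array's range. Probe set 1374966_at had log2 values of 3.0, 3.0 and 3.08 in impaired rats, 2.98, 2.99 and 3.01 in unimpaired rats and 3.02, 3.45 and 4.20 in young rats (lowest, median and highest). Of the young arrays 6 of 8 lay above all 13 aged arrays, and 12 of 13 aged arrays lay below all young ones. The means were 3.01 ± 0.03 in impaired, 3.0 ± 0.01 in unimpaired and 3.47 ± 0.38 in young rats (SD, n = 7, 6 and 8). The aged values were nearly constant and 1 array alone, young replicate 9, was above 4, so the probe set was not tested. In a fit without the level filter, over 31042 probe sets, Dcx differed by -0.47 ± 0.10 in all aged relative to young rats (limma adjusted p = 0.0642), which missed the threshold. It also missed it in impaired (limma adjusted p = 0.175) and in unimpaired rats (limma adjusted p = 0.118). Without young replicate 9 the young mean was 3.37 ± 0.25 (SD, n = 7), and the difference of all aged from young rats in that fit was -0.36 ± 0.07, which passed the threshold (limma adjusted p = 0.0427), whereas those of impaired (limma adjusted p = 0.142) and unimpaired rats (limma adjusted p = 0.0923) did not. Leaving out that array made both the difference and its standard error smaller. The fit takes 1 spread for all groups although the aged values hardly varied, so these p-values do not reflect the unequal spreads. The other Dcx probe set, 1387601_at, lay between 2.06 and 2.11 on all arrays.

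Dpysl5, a collapsin response mediator protein of growing neurites, showed a single high array. Its probe set had log2 values of 3.20, 3.28 and 3.38 in impaired rats, 3.06, 3.26 and 3.28 in unimpaired rats and 3.27, 3.29 and 4.41 in young rats. The highest, young replicate 9, was also the highest for Dcx, and the other young arrays lay between 3.27 and 3.30. Sox11, the close relative of Sox4, lay between 2.22 and 2.30 on all arrays, and the 2 Dpysl3 probe sets lay between 2.29 and 2.33 and between 1.90 and 1.95. None of these was tested.

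**Figure D3:**
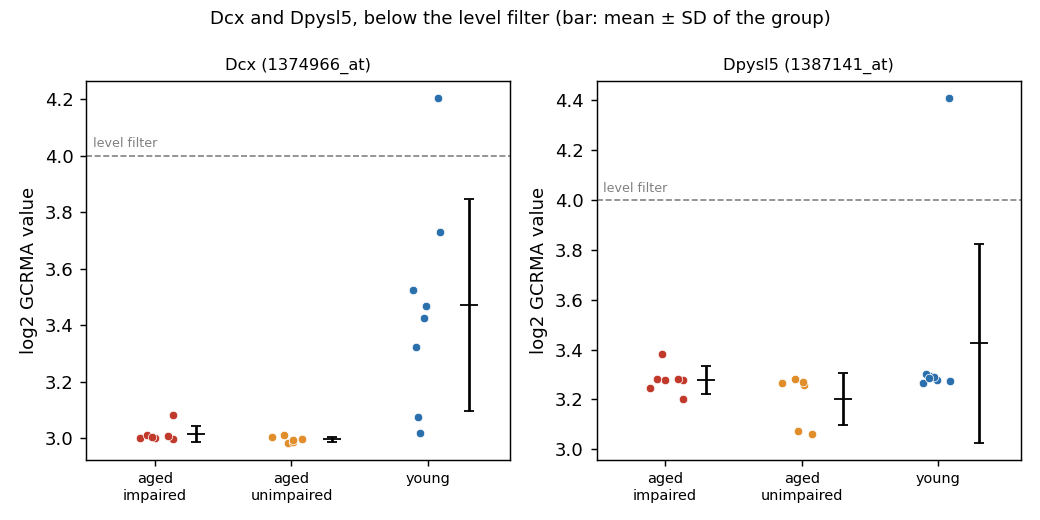
Log2 GCRMA value (y axis) of Dcx 1374966_at and Dpysl5 1387141_at in aged impaired, aged unimpaired and young rats, 1 point per array with the group mean ± SD; the dashed line is the level filter at 4. Aged Dcx values lie between 2.98 and 3.08 while the young ones spread up to 4.20, and young replicate 9 alone is above the line in both panels.

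Within groups, the members did not vary as a single block. Correlations were computed over the 21 arrays after removing each group's mean, for 15 pairs of the 6 genes, each gene by its brightest tested probe set. The median r was 0.28, 9 of 15 pairs were positive and 2 passed after adjustment over the pairs. Sox4 and Nrep were correlated with r = 0.64 and rho = 0.69 (two-sided permutation within groups, p = 0.00211, adjusted p = 0.0316), and r = 0.57 without the 2 arrays farthest from the median of Sox4. Stmn1 and Nrep gave r = 0.60 and rho = 0.60 (permutation p = 0.0061, adjusted p = 0.0457), and r = 0.42 without 2 arrays. Tubb3 and Nrep gave r = -0.57 (permutation adjusted p = 0.0631). Tubb2b and Nrep, both lower in aged rats, gave r = -0.04 within groups (permutation adjusted p = 0.876). Values of different genes on an array share its RNA and its normalization. Without the 4 arrays with high meningeal genes 1 pair passed. Without young replicate 9 neither of the first pairs passed: Sox4 and Nrep gave r = 0.57 (permutation adjusted p = 0.0856) and Stmn1 and Nrep r = 0.51 (permutation adjusted p = 0.111). In those 20 arrays 1 pair passed, Neurod1 and Tubb3 (r = 0.72, rho = 0.55, permutation adjusted p = 0.0495). The 2 bright Sox4 probe sets, a comparison chosen after the data were seen, gave r = 0.40 and rho = 0.44 (permutation p = 0.0845), and r = 0.21 without 2 arrays.

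**Figure D4:**
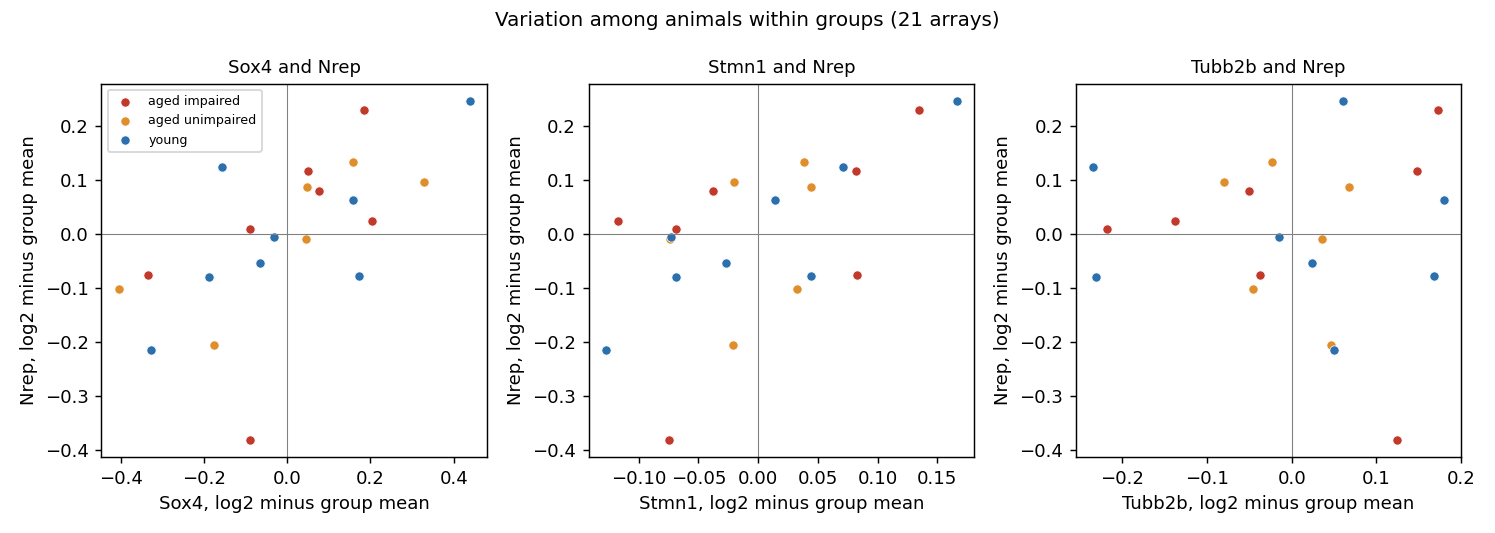
Log2 values minus the group mean for Sox4 against Nrep, Stmn1 against Nrep and Tubb2b against Nrep (x and y axes), 1 point per array, coloured by group (21 arrays). The first panels rise from lower left to upper right (r = 0.64 and 0.60), and the third has no slope (r = -0.04).

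Seen by array, the mean rank over the 6 genes (1 is the highest of 21) was 2.83 in young replicate 9 and 3.33 in young replicate 6, and between 5.67 and 7.83 in the other young arrays. It was between 8.92 (replicate 7) and 16.0 (replicate 3) in impaired rats and between 13.7 (replicate 7) and 18.5 (replicate 4) in unimpaired rats. Thus no aged array had a mean rank as high as any young array. These ranks describe the same values as the group comparisons and add no test.

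**Figure D5:**
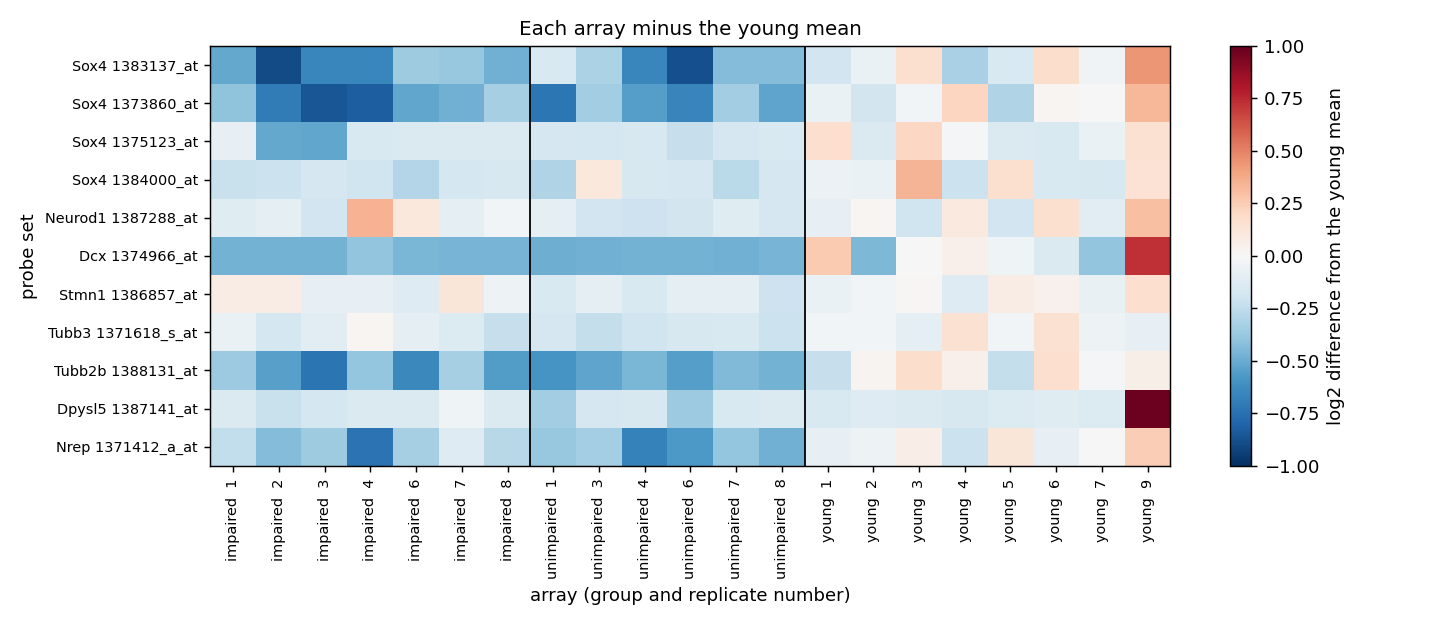
Each array (columns, by group and replicate) minus the young mean, on the log2 scale, for the 11 member probe sets above 4 on at least 1 array (rows); blue is lower and red higher than the young mean. The rows of Tubb2b, Sox4 1383137_at, Sox4 1373860_at and Nrep are blue across the aged arrays, and young replicate 9 is the reddest column for Dcx and Dpysl5.

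The genes whose values followed the members most closely were sought among 8737 genes, by Pearson correlation of group-centred values with the mean of the 6 standardized members over 21 arrays. They were Ptprz1 (r = 0.85), Igsf3 (r = 0.82), Dlg5 (r = 0.81), Btbd1 (r = 0.80) and Ttc28 (r = 0.80). Ptprz1 encodes a receptor phosphatase of glia and their precursors, and Dlg5 a scaffold protein of cell junctions. Without young replicate 9 the 5 genes with the highest correlation were Rpa1 (r = 0.84), Ptprz1 (r = 0.80), Btbd1 (r = 0.79), Trappc5 (r = 0.79) and Gpm6b (r = 0.78), so that 2 of the 5 were shared. As the best of many, these correlations are a description without a test.

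Among 24 measured genes of 30 on the array that mark immature neurons or neurite growth beyond the 10 members, 19 were negative in impaired and 20 in unimpaired rats relative to young rats. Of all probe sets 44.8% and 66% were negative in these comparisons. The median difference was -0.07 and -0.14, against 0.01 and -0.04 over all probe sets. In impaired rats 1 of the 24 genes (Sema3c) had a probe set called lower and in unimpaired rats 3 had, against 0.204% and 0.936% of all probe sets. The list was chosen with earlier results of these data known. Sema3c, a secreted guidance cue, fell by 1.88 ± 0.18 in impaired (limma adjusted p = 7.31e-06) and by 1.47 ± 0.19 in unimpaired relative to young rats (limma adjusted p = 0.000607). Marcksl1, an actin-binding protein of growth cones, fell by 0.52 ± 0.08 in unimpaired rats (limma adjusted p = 0.0062), and the RNA-binding protein gene Elavl4 fell by 0.48 ± 0.10 (limma adjusted p = 0.0204). In impaired rats Marcksl1 differed by -0.30 ± 0.08 (limma adjusted p = 0.0977). Calb2, a marker of a short stage of granule neuron maturation, averaged 3.27, 3.43 and 3.38 in impaired, unimpaired and young rats and was not tested.

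Calls among genes of earlier and later stages stand beside the same shares of all probe sets called in either direction, 0.514% in impaired and 1.13% in unimpaired relative to young rats. Counts of negative signs stand beside 44.8% and 66% of all probe sets. Of 15 measured stem and progenitor genes, 0 were called in impaired rats. The signs were mixed, with 7 of the 15 negative in impaired and 11 in unimpaired rats relative to young rats. In all aged rats 11 of the 15 were negative, against 56.8% of all probe sets, so the genes named as higher below are not typical of the list there. Prom1, a membrane protein of stem cells, fell by 0.41 ± 0.10 in unimpaired relative to young rats (limma adjusted p = 0.0466). By its dimmest tested probe set Thrsp, reported in mouse dentate stem cells, was 0.51 ± 0.12 higher in all aged than in young rats (limma adjusted p = 0.0428). In impaired rats the smallest p-values in the list were those of Id4 (0.37 ± 0.10, limma adjusted p = 0.104) and Thrsp (0.49 ± 0.14, limma adjusted p = 0.130). The Id4 value is that of its brightest tested probe set. The other tested Id4 probe sets averaged 6.52, 7.68 and 6.64 in impaired and 6.52, 7.70 and 6.54 in young rats. They did not share a difference of that size. The Thrsp value is again that of the dimmest tested probe set. Its other tested probe sets averaged 8.33 and 8.41 in impaired, 8.38 and 8.36 in unimpaired and 8.03 and 8.11 in young rats. Dividing cells were nearly out of reach, with 5 of 22 genes on the array measured and 0 called. Of those 5 genes, 3 were negative in impaired and 4 in unimpaired rats relative to young rats. Mki67, the proliferation marker, averaged 3.27, 3.27 and 3.26 in impaired, unimpaired and young rats, below the filter. Of the measured ones Ccnd1, cyclin D of the G1 phase, differed by -0.30 ± 0.15 in impaired relative to young rats (limma adjusted p = 0.422). Of 12 measured markers of mature granule neurons, 5 were negative in impaired and 7 in unimpaired rats relative to young rats, and 0 were called. Tubulins, stathmins and other relatives of the members gave 0 calls among 11 measured genes, with 7 negative in impaired and 10 in unimpaired rats.

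Among markers of other cells, 2 of 6 measured oligodendrocyte precursor genes and 3 of 9 oligodendrocyte genes were called lower in unimpaired relative to young rats, against 0.936% of all probe sets. In impaired rats 0 of 6 and 0 of 9 were, against 0.204% of all probe sets. Between the aged groups 0% of all probe sets were called, the list genes among them. All 6 measured oligodendrocyte precursor genes were negative in both aged groups relative to young rats, where 44.8% (impaired) and 66% (unimpaired) of all probe sets were. Vcan, a matrix proteoglycan, fell by 0.60 ± 0.13 and Pdgfra, a growth factor receptor, by 0.34 ± 0.07 in unimpaired relative to young rats (limma adjusted p = 0.0278 and 0.0344). The mean level of the list relative to all probe sets ranged from -0.50 to -0.27 in impaired, from -0.76 to -0.36 in unimpaired and from -0.49 to 0.00 in young arrays. The oligodendrocyte genes Cldn11, Mal and Ugt8 also fell in unimpaired rats (-0.64 ± 0.10, -0.63 ± 0.11 and -0.91 ± 0.21, limma adjusted p = 0.0062, 0.0121 and 0.0355). That list's mean level ranged from 1.13 to 1.62 in impaired, from 0.94 to 1.36 in unimpaired and from 1.36 to 1.73 in young arrays. The astrocyte gene Gfap was 0.43 ± 0.09 higher in impaired rats (limma adjusted p = 0.0407) and the microglial C1qa 0.49 ± 0.12 higher in unimpaired rats (limma adjusted p = 0.0463). Of 10 measured astrocyte genes 1 was called in impaired and 0 in unimpaired rats, against 0.514% and 1.13% of all probe sets in either direction. The astrocyte signs were mixed, with 4 of the 10 negative in impaired and 7 in unimpaired rats. The endothelial transporter gene Slco1c1 fell by 0.55 ± 0.06 in impaired and by 0.50 ± 0.07 in unimpaired rats (limma adjusted p = 0.000146 and 0.000691), and the endothelial receptor gene Tek by 0.51 ± 0.09 in unimpaired rats (limma adjusted p = 0.0102). Of 8 measured endothelial genes 1 was called lower in impaired and 2 in unimpaired rats, against 0.204% and 0.936% of all probe sets. The endothelial signs were mixed, with 3 of the 8 negative in impaired and 6 in unimpaired rats. Of 10 measured microglial genes 1 was negative in impaired and 2 in unimpaired rats, and Fcer1g was 0.38 ± 0.09 higher in all aged than in young rats (limma adjusted p = 0.0350). In the lists of GABAergic neurons (7 genes measured), pyramidal neurons (7), meninges (3) and choroid plexus (1, Ttr) 0 genes were called in either comparison with young rats. The part of these cells in the members' differences was not tested.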

How the data were processed

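Rat expression arrays of the dentate gyrus were analysed, 24 by label and 21 with values (7 impaired, 6 unimpaired, 8 young). The submitters omitted 3 arrays, 1 per group, for which the columns are empty and were not used. Values were deposited on a log2 scale, 1 per probe set, as the authors made them with the GCRMA method (per the submitters' processing notes), whose version is not given in the sources used here. The values lie between 0.55 and 15.2.

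Probe sets other than controls with a log2 value above 4 on at least 6 arrays (15177) entered 1 linear model of the 3 groups with 18 residual degrees of freedom, using lmFit and eBayes of limma 3.58.1 (R 4.3.3). Benjamini-Hochberg adjustment ran over all of them, and a probe set was called at an adjusted p below 0.05. The method was tested on simulated data with independent normal noise for each probe set. Those data held no array effects, no correlation between genes and no unequal group spreads, so the test does not cover these. Correlations used 100000 permutations within groups. A list's level is the mean log2 value of its measured genes minus the mean of all tested probe sets. A list gene counts as called when any of its tested probe sets was called, and its sign is that of its brightest tested probe set. The shares given beside these counts are of probe sets, so the units differ for genes with several probe sets. No depth exists for arrays, and the number of arrays limits the precision. The labels give no batch. Same-numbered arrays of different groups were at most weakly correlated in their deviations from the group mean (17 pairs, r from -0.12 to 0.20). The labels name no pairing by number, and correlations this weak cannot decide whether there was one.

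The members, the 14 gene lists from textbook knowledge and the set of arrays with high meningeal genes were chosen with earlier results of these data known. Named were each member with all its probe sets, up to 4 called genes per list and comparison by p-value, the smallest p-values of the stem and dividing cell lists, and the 5 genes most like the members. Calb2 and Mki67, the Marcksl1 value in impaired rats and the single arrays described were picked after their values were seen. Gene names follow the platform annotation.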

Additional observations from a re-analysis of the deposited data

Results flagged for a closer look

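Within groups of 6 to 8 arrays, 4 values stood far from the others of their group by Dixon's criterion, in 33 groups examined, where chance alone gives about 1 in 20. Dpysl5 was 4.41 in young replicate 9, against 3.27 to 3.30 in the other young arrays. Dcx 1374966_at was 3.08 in impaired replicate 4, against at most 3.01 in the other impaired arrays. Sox4 1384000_at was 4.02 in unimpaired replicate 3, against 3.61 to 3.75 in the other unimpaired arrays. Sox4 1375123_at was 3.91 in unimpaired replicate 6, against 3.97 to 3.99 in the other unimpaired arrays. Of these probe sets only Sox4 1375123_at was tested.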

How the results depend on the processing

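In impaired relative to young rats 4 member probe sets of 3 genes were called, 2 without the level filter and 2 without the 4 arrays with high meningeal genes, and between 2 and 4 with 1 array left out (2 without impaired replicates 2 or 3 or young replicates 3, 6, 7 or 9). In unimpaired relative to young rats 4, of 4 genes, were called and between 3 and 4 with 1 array left out. The replicate number as a block left 3 member probe sets called in impaired, 1 in unimpaired and 3 in all aged rats relative to young rats, where the fit without it gave 4 each, and 0 in either fit between the aged groups. The labels name no pairing by number, and the values do not decide it (4 of 17 same-numbered pairs correlated above 0.1, and in 5 the own number correlated best). Under the block Sox4 1373860_at (adjusted p = 0.0819), Tubb2b (adjusted p = 0.0502) and Tubb3 (adjusted p = 0.11) missed the threshold in unimpaired rats, and Sox4 1383137_at in impaired (adjusted p = 0.061) and all aged rats (adjusted p = 0.0625). Between the aged groups 0 member probe sets were called in each setting. Tubb2b was called in impaired relative to young rats in all 21 fits with 1 array left out and in all 10 other settings. Nrep missed the threshold in impaired rats without the filter (adjusted p = 0.0976), with array weights (0.0512) and with only the groups compared (0.0984), and Tubb3 was called in unimpaired rats in 4 of 10 other settings. Sox4 1383137_at missed it in impaired rats without the filter (adjusted p = 0.0733), and passed in unimpaired rats in 3 of 10 settings. Differences near 0 changed sign, none with an adjusted p under 0.759. Neurod1 in impaired minus young rats was 0.00093 with array weights, 0.0097 with the block, 0.049 without the 4 arrays and -0.070 to 0.032 with 1 array left out. Stmn1 in impaired minus young rats was 0.012 with array weights, 0.039 with the block and -0.033 to 0.013 with 1 array left out. In impaired minus unimpaired rats, Tubb2b was 0.015 with array weights, 0.0020 with the block, 0.019 without the 4 arrays and -0.030 to 0.035 with 1 array left out, Sox4 1373860_at was 0.0049 and Sox4 1375123_at 0.046 without the 4 arrays. Of the correlated pairs 2 passed, 1 without the 4 arrays and 1 without young replicate 9, which was another pair. Dcx in all aged rats without the filter missed the threshold over all arrays (adjusted p = 0.0642) and passed without young replicate 9 (adjusted p = 0.0427). Counts over all probe sets, which set the shares of 0.514% and 1.13%, moved in both directions. The 78 in impaired minus young became 33 without the filter, 29 without the 4 arrays, 114 with the block and between 36 (without impaired replicate 2 or young replicates 3 or 9) and 161 (without young replicate 5) with 1 array left out. The 172 in unimpaired minus young became 67, 95 and 9, at most 195 (eBayes with trend and robust), and between 59 (without young replicate 9) and 219 (without young replicate 1). The share of lower calls among them was 39.7% and 82.6%, and 50% and 48.8% after quantile normalization. The causes were not tested. Dcx, Sox11, Dpysl3 and Dpysl5 had no probe set that passed the level filter.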
